A study of Bos taurus with 28 samples.

Results

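Cytosolic ribosomal protein genes were followed one array at a time in the mammary gland of 28 lactating Holstein-Friesian cows. Members were chosen by gene symbol in the platform annotation: symbols that start with RPL or RPS and a digit, with RPSA and the stalk proteins RPLP0 and RPLP2 added. S6 kinases and mitochondrial ribosomal proteins were left out, and only probe sets with 1 symbol were used. The rule gave 69 genes, measured by 98 probe sets, of 9155 genes and 24016 probe sets in all. Of the 69 genes, 64 name standard subunits, with 38 in the large subunit, 24 in the small subunit and 2 in the stalk. RPL15P, counted in the large subunit by its symbol, is a pseudogene in the RefSeq annotation. A further 4 genes are close relatives of a standard subunit (RPL26L1, RPL3L, RPL7L1 and RPS27L), and RPS19BP1 encodes a nucleolar protein that binds RPS19 and is not itself a ribosomal protein.

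The groups are the genotypes of DGAT1, whose enzyme completes the synthesis of triacylglycerol, the main milk fat. AA cows carry alanine on both alleles (11 cows), KA cows are heterozygous (13 cows), and KK cows carry lysine on both alleles (4 cows). All cows were in mid-lactation, received the control diet, and gave 1 surgical biopsy each, which was hybridised to 1 Affymetrix Bovine Genome Array. The genotype is a natural variant of whole animals, and a biopsy holds every cell type of the gland. The comparisons ask whether gene expression differs with this genotype.

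The cytosolic ribosome joins a large and a small subunit, each built of ribosomal RNA and many small proteins. Most ribosomal proteins are needed in one copy per ribosome, and their messenger RNAs are among the most abundant in a cell. In the lactating gland, secretory cells use these ribosomes to make the milk proteins. In most vertebrates the messenger RNAs of ribosomal proteins and elongation factors share a pyrimidine tract at the start, through which mTOR signalling controls their translation.

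Every value used here is a log2 value relative to a baseline that is subtracted probe set by probe set. A value of 0 is therefore the baseline of that probe set, a value of 1 is a level 2-fold above it, and values of different genes cannot be ranked by level. A coarse level class was read from the rounding steps of the values: 63 of the 69 members were bright (a log2 level of at least 8), 5 were intermediate (at least 4) and 1, RPS19, was dim. Of all genes, 15.8% were bright. Of 17 milk protein and secretory epithelium genes, 16 were bright, so the label of mammary tissue goes with its defining genes.

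Several features of the arrays bear on every comparison below. The arrays AA 2 and AA 9 stood apart: they read -1.99 and -2.78 in the mean of the milk and epithelium genes (other 26 arrays: -0.24 to 0.25) and 0.93 and 1.20 in the mean of 18 fibroblast and matrix markers (others: -0.39 to 0.40). In bulk tissue, fewer cells of a type and less RNA per cell cannot be told apart. Array numbers in the sample titles run from 29 to 56, and no source used here says what they mean. Numbers 29 to 42 held 8 AA, 2 KA and 4 KK cows, and numbers 43 to 56 held 3 AA and 11 KA cows, so KK was never measured in the upper range. Results are therefore given with and without AA 2 and AA 9, and within the 2 ranges.

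The ribosomal protein genes moved as a block from array to array. The mean over the 69 members was lowest in AA 1 (-0.39), followed by KA 4 (-0.27), KA 8 (-0.26) and KA 11 (-0.25). It was highest in AA 9 (0.56) and AA 2 (0.37), followed by KA 2 (0.11) and AA 11 (0.10). Leaving out AA 2 and AA 9, the span from AA 1 to KA 2 was 1.42-fold. AA 1 alone had the lowest value of the 26 arrays in 44 of the 69 members, and 66 members lay below their baseline in it. AA 11 had the highest value in 25 members and KA 2 in 21. The SD over all probe sets was 0.34 in AA 1, 0.35 in AA 11 and 0.31 in KA 2, against a median of 0.27 over the 26 arrays. The share of all probe sets with their lowest or highest value in these arrays is not given here, so these counts describe the members alone. The lowest array and the 2 highest were all from AA cows.

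**Figure D1:**
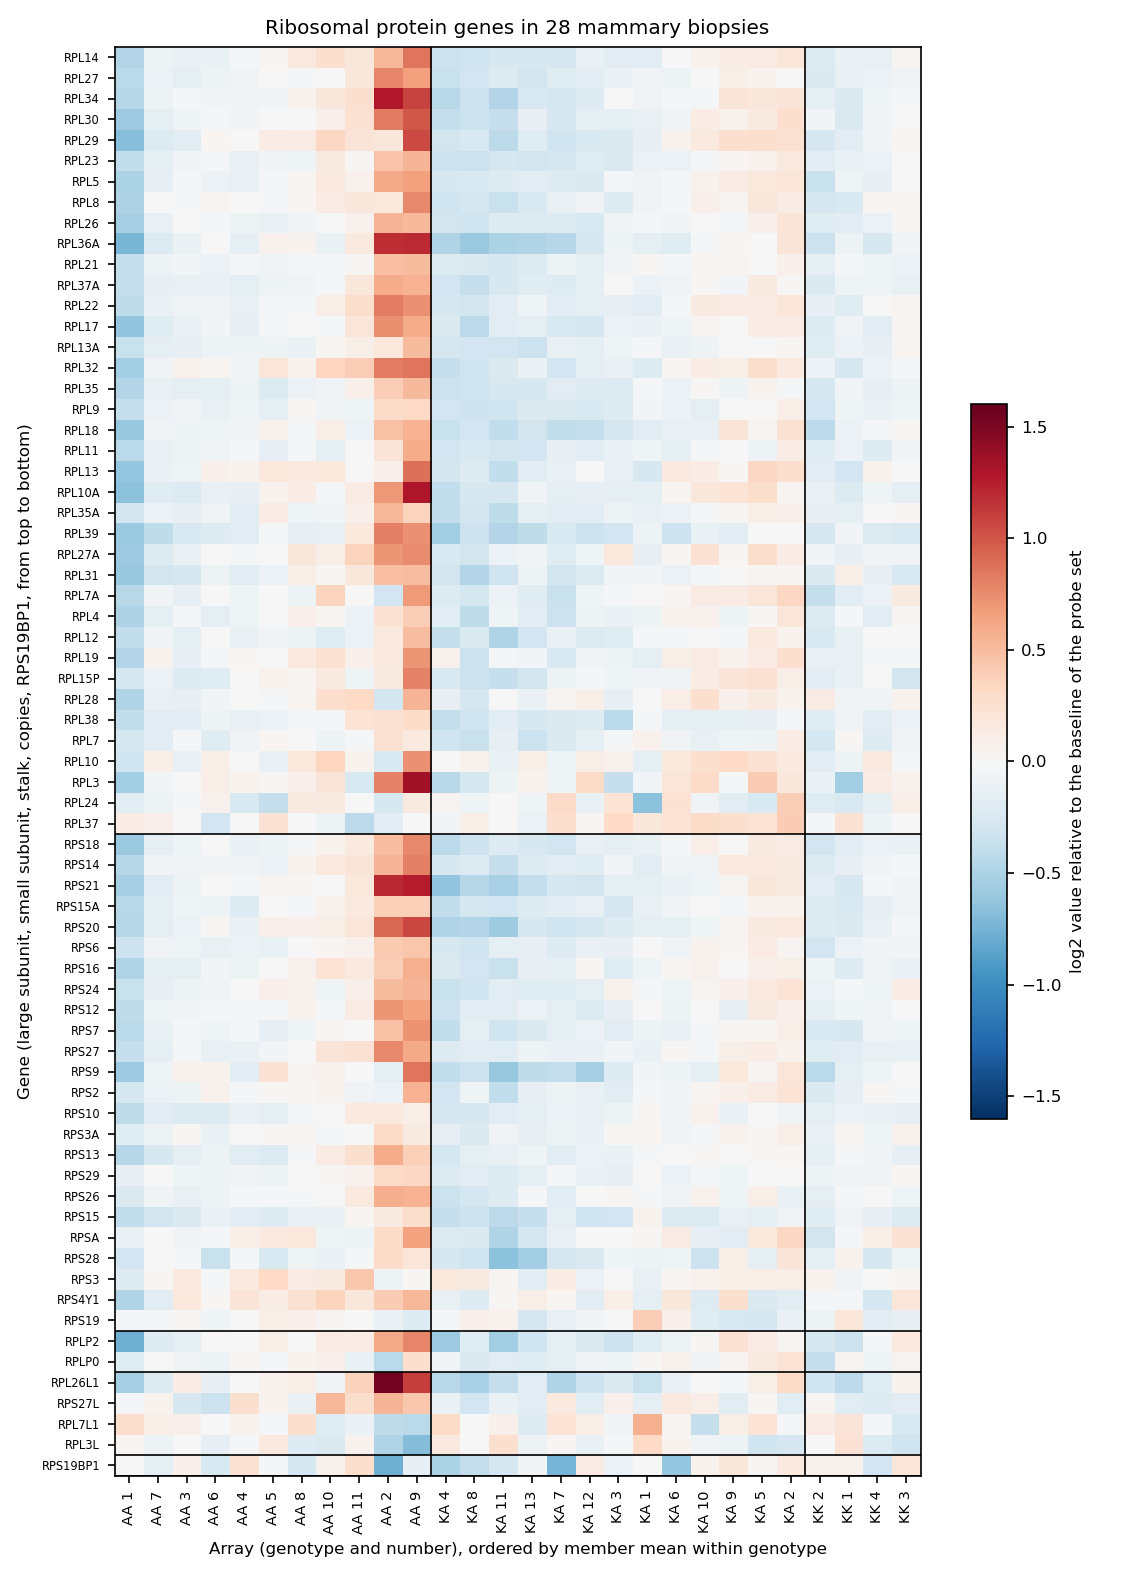
Heat map of the 69 genes (rows, grouped by subunit and ordered by their correlation with the other members) in the 28 arrays (columns, grouped by genotype); colour is the log2 value relative to the baseline of the probe set, red above and blue below. Whole columns share a colour: AA 1 is blue in nearly every row, and AA 2 and AA 9 are red in most. RPL3L and the chosen probe set of RPL7L1, near the bottom, are blue in AA 2 and AA 9.

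Large and small subunit genes shifted together. The mean of the 38 large subunit genes ranged from -0.46 to 0.15 over the 26 arrays and the mean of the 24 small subunit genes from -0.36 to 0.11. The 2 means correlated at r = 0.97 (rho = 0.96, n = 26 arrays), and at 0.95 without AA 1 and KA 2, the arrays farthest from the median. Within the lower and upper array numbers r was 0.98 and 0.97 (n = 13 each). Both means come from the same arrays and share their normalization, so this is a description. The large minus small difference stayed between -0.097 and 0.094 in the 26 arrays.

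Between single members the median pairwise correlation was 0.68 over the 26 arrays, 0.74 among large subunit genes and 0.66 among small subunit genes. By the same measure, 13 elongation and associated factors had a median of 0.61, 28 initiation factors 0.28, 43 ribosome biogenesis genes 0.27, 67 mitochondrial ribosomal proteins 0.17, and 19 genes of mTOR and MYC control 0.10. Besides elongation factors, the first of these lists holds BTF3, NACA, PABPC1, PABPC4, EEF1E1, TPT1, and the ribosomal genes RACK1 and FAU. These lists differ in brightness: 12 of the 67 mitochondrial ribosomal proteins and 4 of the 43 biogenesis genes were bright. The correlation with the mean of the other members was above 0.8 in 42 of the 69 members (60.9%), against 63 of 9086 other genes (0.693%) and 3.26% of the other bright genes. It was highest for RPL14 (0.96), RPS18 (0.95) and RPL27 (0.95), ribosomal proteins of the large, small and large subunit.

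A few members did not follow the block. The correlation with the others was lowest for RPL3L (-0.45), a relative of RPL3 known mainly from skeletal and heart muscle, followed by RPL7L1 (-0.33), a relative of RPL7, and RPS19 (-0.14), the only dim member. RPL37, a large subunit protein, stood at 0.05 and RPL24, also of the large subunit, at 0.09. RPS27L, a relative of RPS27 known as a p53 target, stood at 0.28 and RPS19BP1 at 0.39. RPL26L1, a near copy of RPL26, followed the block at 0.85. Of these genes, RPL24 has a second bright probe set, which correlated with the member mean at 0.94 and with the first at 0.12, so the low value of RPL24 holds for 1 of its 2 probe sets.

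Probe sets of the same gene disagreed often. For 19 genes with several probe sets, 29 pairs of the chosen probe set and another one could be compared over the 26 arrays, and the median correlation was 0.27, with 5 pairs above 0.5. It was 0.50 over the 6 pairs whose other probe set was bright, 0.16 over 17 intermediate ones and -0.081 over 6 dim ones. The poorest agreement was -0.42 for RPL7L1, -0.30 for RPL9, -0.28 for RPS7 and -0.26 for RPL3. For RPL7L1 the choice turns the direction: its other probe sets read 1.59 and 0.32 in AA 2, where the chosen one read -0.40, and correlated with the member mean at 0.51 and 0.60. Ribosomal protein genes have many processed pseudogenes and close copies, and probes may not separate them.

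The size of the variation differed among members. The median SD within genotype over the 26 arrays was 0.171 for the members, against 0.209 for all other genes and 0.206 for the other bright ones. The 5 steadiest members were RPS29 (SD 0.071), RPS3A (0.085), RPL21 (0.11), RPS26 (0.12) and RPS10 (0.12), of which 4 are in the small subunit. The 5 most variable were RPS19BP1 (0.26), the large subunit protein RPL3 (0.26), the stalk protein RPLP2 (0.26), RPL29 (0.25) and RPL26L1 (0.25).

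By genotype, the member mean was 0.038 ± 0.25 in AA (SD, n = 11), -0.095 ± 0.13 in KA (n = 13) and -0.099 ± 0.061 in KK (n = 4). The KK arrays read -0.10, -0.18, -0.029 and -0.086 in KK 1 to KK 4. All of these lie inside the range of AA, from -0.39 to 0.56, and inside that of KA, from -0.27 to 0.11. Without AA 2 and AA 9 the AA mean was -0.057 ± 0.14 (n = 9). The difference between the genotype means was smaller than the SD of AA in each case.

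**Figure D2:**
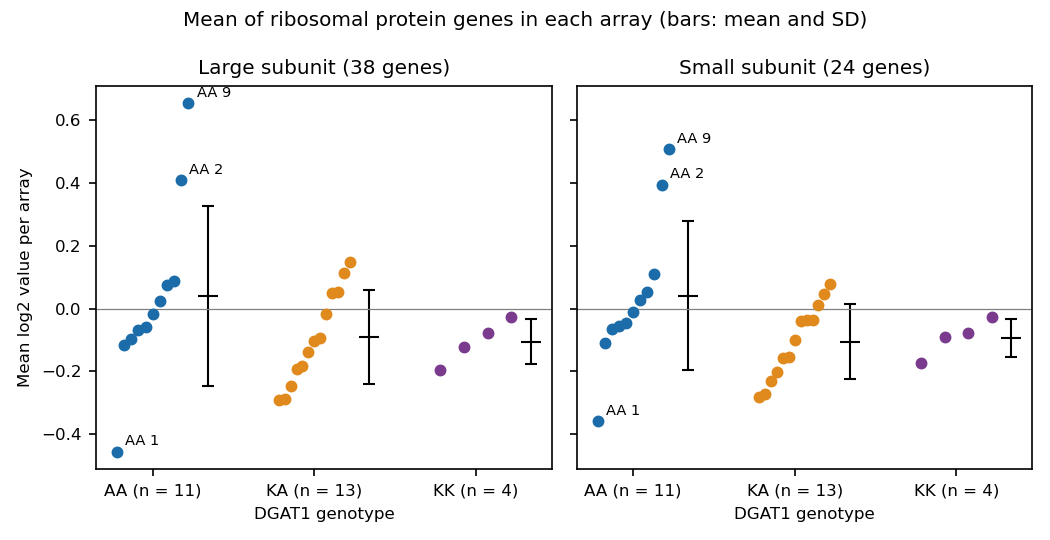
Mean log2 value of the 38 large subunit genes (left) and the 24 small subunit genes (right) in each array by DGAT1 genotype; points are arrays, the horizontal tick and bar are the mean and SD over arrays. AA 2 and AA 9 lie above, and AA 1 below, all KA and KK arrays in both panels, while the other AA arrays overlap KA and KK.

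No member passed an adjusted p of 0.05 in any of the 4 comparisons (limma with Benjamini-Hochberg adjustment over 24016 probe sets), as was the case for the whole array (percent called 0.0 in each). The slope on the number of K alleles (0 in AA, 1 in KA, 2 in KK) had a median of -0.085 log2 per allele over the 69 members, against 0.0090 over all probe sets tested, and was negative in 64 of 69, against 46.0% of all probe sets. All 24 small subunit genes had a negative slope. An unadjusted p under 0.05 was met by 5 members (RPS27L, RPL26L1, RPL32, RPS20 and RPS27), all negative, where 4.48% of all probe sets were negative and 4.68% positive at that level. The smallest adjusted p was 0.526. Single arrays moved the count of 5: it was 28 without AA 1, where 7.79% of probe sets were negative at that level, 1 without AA 9 (2.28%), 1 without AA 2, and 3 without AA 10 or AA 11. For AA 2, AA 10 and AA 11 the share of all probe sets is not given here, so these counts describe the members alone. With AA 2 and AA 9 both left out, the median slope was -0.022, with 57 of 69 negative and 0 members at an unadjusted p under 0.05, where 1.55% of probe sets were negative and 1.71% positive. All probe sets were then negative in 46.7%.

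In KK against AA the members were lower in 64 of 69, against 47.8% of all probe sets, with a median of -0.14, or 0.909-fold. None met an unadjusted p under 0.05, where 1.51% of all probe sets were lower and 2.0% higher at that level, and the smallest adjusted p was 0.909. Leaving out AA 1 brought 5 members, all lower, to that level, where 3.24% of probe sets were lower. Leaving out AA 3, AA 6, AA 8 or KK 2 brought 1, and the share of all probe sets is not given here for these fits. With AA 2 and AA 9 both left out, the median was -0.033 with 54 of 69 lower, against 48.2% of all probe sets; none met an unadjusted p under 0.05, where 1.14% were lower and 1.62% higher. In KK against KA 37 of 69 members were lower, against 50.5% of all probe sets, with a median of -0.0027, and none met an unadjusted p under 0.05, where 1.39% of probe sets were lower and 1.44% higher. Within numbers 29 to 42, which hold 2 KA cows, 64 of 69 were lower (median -0.12), against 48.8% of all probe sets. With the number ranges as a block 62 of 69 were higher (median 0.087), where 49.6% of all probe sets were lower. Members moved together from array to array, so they are not independent observations. No direction held for KK against KA. With 4 KK cows these comparisons have the least precision: the SE of KK minus AA was 0.13 for RPL8 and 0.24 for RPL26L1.

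In KA against AA 62 of 69 members were lower, against 45.5% of all probe sets, with a median of -0.13, or 0.913-fold. At an unadjusted p under 0.05 there were 13 lower members and 1 higher, where 11.1% of all probe sets were lower and 10.8% higher. The smallest adjusted p was 0.142. Without AA 2 and AA 9 the median was -0.035 with 54 lower, against 47.0% of probe sets; 0 members were lower and 1 was higher at an unadjusted p under 0.05, against 4.3% and 5.2% of probe sets. Leaving out AA 9 alone brought the median to -0.081 and the count of 13 to 3, where 6.81% of probe sets were lower. Leaving out AA 1 alone brought them to -0.18 and 38, where 14.9% were lower, and the smallest adjusted p was then 0.0568. The count was 4 without AA 2, 7 without AA 10 or AA 11, and 5 to 8 without KA 4, KA 7, KA 8, KA 11, KA 12 or KA 13. For these fits the share of all probe sets is not given here, so whether the members moved more than the array cannot be read from them.

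The median of KA against AA had opposite signs in the 2 ranges of array numbers. Within numbers 29 to 42 the median over the members was 0.078 (2 KA against 8 AA cows) and 0.13 without AA 2. No member met an unadjusted p under 0.05 there, and the share of all probe sets is not given here for these fits. In the member mean KA 1 read -0.061 and KA 2 0.11. The AA mean of that range was -0.038, and -0.097 without AA 2, so the positive sign over all its arrays rests on KA 2. Within numbers 43 to 56 the median over the members was -0.37 (11 KA against 3 AA cows). There 23 members passed an adjusted p of 0.05, all lower, where 9.08% of all probe sets were called. At an unadjusted p under 0.05, 54 members were lower and 2 higher, against 18.7% and 15.8% of all probe sets. RPS20 (-0.69), RPL26L1 (-0.71) and RPL38 (-0.40) were among the 23. Without AA 9, which is 1 of those 3 AA arrays, the median was -0.22 and 0 members passed, with 21 lower and 1 higher at an unadjusted p under 0.05, against 7.11% and 6.45% of all probe sets. Whether the number ranges differ in handling was not tested. KK against AA had a median of -0.060 within numbers 29 to 42 and -0.0041 without AA 2.

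**Figure D3:**
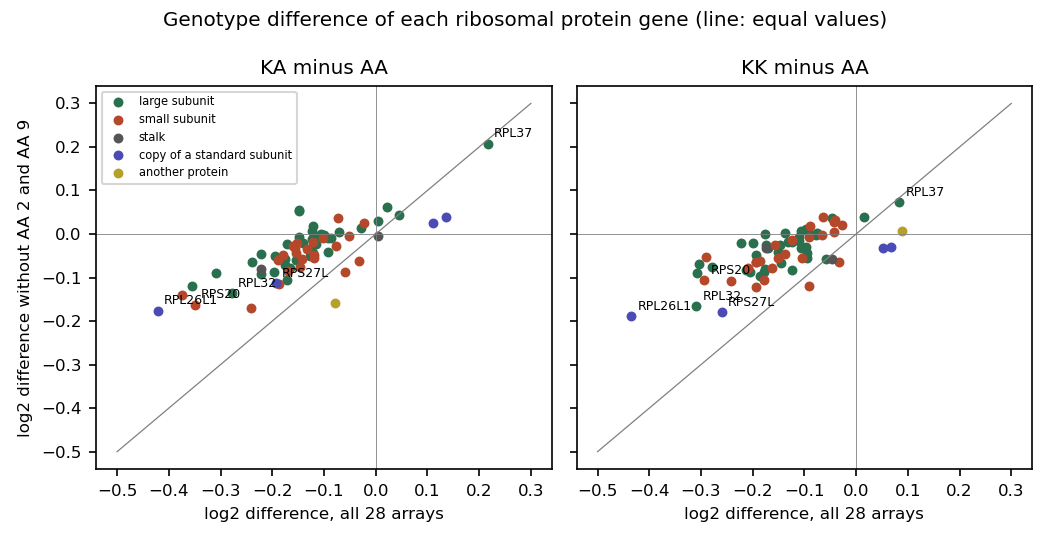
Each point is 1 ribosomal protein gene; the x axis is the log2 difference KA minus AA (left) or KK minus AA (right) over all 28 arrays, the y axis the same difference without AA 2 and AA 9, and the line marks equal values. Most points lie above the line and closer to 0 on the y axis than on the x axis, and RPL37 lies close to the line in the left panel.

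RPL37 was the only member with KA above AA at an unadjusted p under 0.05, where 10.8% of all probe sets were higher. Its only probe set was of intermediate level, while 37 of the 38 large subunit genes were bright. In AA RPL37 ranged from -0.41 to 0.23 with a median of -0.0053, in KA from -0.099 to 0.40 with a median of 0.21, and in KK it read 0.23, -0.034, 0.0023 and -0.079. Of the 13 KA arrays, 11 lay above the AA median, and the ranges overlapped. KA minus AA was 0.22 (SE 0.071), 1.16-fold, with an adjusted p of 0.142. The difference was 0.21 without AA 2 and AA 9, 0.30 within numbers 29 to 42 and 0.31 within numbers 43 to 56. KK minus KA was -0.13 (SE 0.10), with an adjusted p of 1.00.

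RPS20, a small subunit protein, ranged from -0.45 to 1.07 in AA (median 0.082) and from -0.57 to 0.16 in KA (median -0.21), and read -0.23, -0.20, -0.018 and -0.12 in KK. The top of the AA range was AA 9, with AA 2 next at 0.92, and the highest other AA array read 0.20. KA minus AA was -0.35 (SE 0.13; adjusted p 0.163), and -0.16 (SE 0.088) without those arrays. RPL26L1 ranged from -0.53 to 1.55 in AA (median 0.069) and from -0.52 to 0.31 in KA (median -0.23), and read -0.42, -0.32, 0.054 and -0.19 in KK. Its KA minus AA was -0.42 (SE 0.17; adjusted p 0.174), and -0.18 (SE 0.10) without AA 2 and AA 9. Both differences were smaller without those 2 arrays, which read high in AA. Without AA 1 they were larger, at -0.41 for RPS20 and -0.50 for RPL26L1.

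RPS27L had the smallest p of the slope, at -0.15 per allele (SE 0.061), and of KK minus AA, at -0.26 (SE 0.13); without AA 2 and AA 9 the slope was -0.095. Its KK arrays read -0.18, 0.047, -0.17 and -0.22, inside the AA range of -0.34 to 0.54. RPL32, of the large subunit, had a slope of -0.18 (SE 0.079) and a KK minus AA of -0.31 (SE 0.17). These became -0.094 and -0.17 without AA 2 and AA 9. Its other probe sets, of intermediate level, gave slopes of -0.011 and -0.27 and KK minus AA of -0.097 and -0.42 over all arrays. RPS27 had a KK minus AA of -0.24 (SE 0.13), then -0.11. RPL38, of the large subunit, had a KA minus AA of -0.17 (SE 0.069; adjusted p 0.179), then -0.11. Each of these kept its sign and became smaller in size without AA 2 and AA 9. Both arrays read high in these genes, so leaving them out lowers the AA mean and the smaller size follows from that. Without AA 1, KK minus AA was -0.38 for RPL32 and -0.29 for RPS27, and KA minus AA was -0.21 for RPL38.

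The remaining members with the smallest p of KK minus KA were RPS19BP1 (0.17, SE 0.16), RPL10 of the large subunit (-0.12, SE 0.12) and RPS28 of the small subunit (0.10, SE 0.12), each with an adjusted p of 1.00. Among the stalk proteins, which recruit the elongation factors, RPLP0 had a KA minus AA of 0.0052 (SE 0.069) and RPLP2 of -0.22 (SE 0.13; adjusted p 0.286, and -0.079 without AA 2 and AA 9). RPSA, a small subunit protein also described as a laminin receptor, had a KA minus AA of -0.17 (SE 0.090; adjusted p 0.258). The relatives RPL3L and RPL7L1 had positive KA minus AA values of 0.14 and 0.11, with adjusted p of 0.350 and 0.462. The other 2 probe sets of RPL7L1 gave -0.25 and -0.14, so its sign depends on the probe set.

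Of the members, 4 lie on the chromosome that carries DGAT1, chromosome 14 in RefSeq's ARS-UCD2.0 annotation: RPL8 with 24 protein-coding genes between, RPS20 with 160, RPL7 with 225 and RPL30 with 325. RPL8, the nearest, encodes a large subunit protein. In AA it ranged from -0.49 to 0.77 (median 0.033), in KA from -0.36 to 0.18 (median -0.062), and in KK it read -0.25, -0.27, 0.042 and 0.020. The means were 0.071 ± 0.29 (SD, n = 11), -0.095 ± 0.17 (n = 13) and -0.11 ± 0.17 (n = 4). KK minus AA was -0.19 (two-sided exact permutation p = 0.249, 0.374 adjusted over the 3 pairs), KA minus AA was -0.17 (permutation p = 0.0981 with 100000 resamples, adjusted 0.294) and KK minus KA was -0.018 (exact p = 0.861). No pair differed beyond the spread between cows.

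The RPL8 values depended on single AA arrays and on the number ranges. Without AA 2 and AA 9, KA minus AA was -0.078 (exact permutation p = 0.332). Without AA 1 it was -0.22 (permutation p = 0.0102, adjusted 0.0306), so that 1 array decided whether the threshold was passed; without AA 1, AA 2 and AA 9 it was -0.14 (exact p = 0.0467, adjusted 0.140). Within numbers 29 to 42, KA minus AA was 0.067 (exact p = 0.711), and within numbers 43 to 56 it was -0.48 (exact p = 0.0165), or -0.27 without AA 9 (exact p = 0.0769). The sign of RPL8 was that of the members' median in each range.

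In AA 2 and AA 9 the ribosomal protein genes were high together, but not evenly. Both arrays lay above all other 26 in 47 of the 69 members, where 18.4% of probe sets did, and both below in 2, RPL3L and RPL7L1, where 17.7% did. For RPL7L1 this holds for the chosen probe set only. Its other probe sets read 1.59 and 0.32 in AA 2, and 0.81 and 0.55 in AA 9. The median departure of the pair from the median of the other 26 arrays was 0.55 log2, or 1.46-fold, against 0.037 for all other genes and 0.21 for the other bright ones. It was largest for RPL26L1 (1.48), the small subunit protein RPS21 (1.33), and RPL36A (1.32) and RPL34 (1.23) of the large subunit. It was lowest for RPL3L (-0.57), RPL7L1 (-0.49), RPS19BP1 (-0.45) and RPL37 (-0.15). RPL26L1 itself read 1.55 (AA 2) and 1.10 (AA 9), and -0.53 to 0.37 elsewhere.

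The pair differed within itself. AA 9 was above AA 2 in 47 of 69 members, by more than 0.5 in 14. Of these 14, 10 are in the large subunit, which holds 38 of the 69 members. AA 2 was above AA 9 by more than 0.5 in none. In 8 members AA 2 lay below the baseline and AA 9 above it. For these counts the share of all probe sets is not given here, so they describe the members alone. RPL10 read -0.24 and 0.74, RPL7A -0.30 and 0.68, RPS9 -0.14 and 0.85, RPL28 -0.30 and 0.54, and RPLP0 -0.43 and 0.26 in AA 2 and AA 9; these were named after their values were seen. RPS21 (1.20 and 1.26) and RPL36A (1.18 and 1.19) were nearly equal. The 3′ minus 5′ signal difference of the array's actin and GAPDH controls, a sign of RNA quality and labelling, was 0.60 for AA 2 and -0.44 for AA 9, while the other arrays ranged from -0.32 to 0.34, so these 2 arrays lay at opposite ends of it. Its part in the values was not tested.

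**Figure D4:**
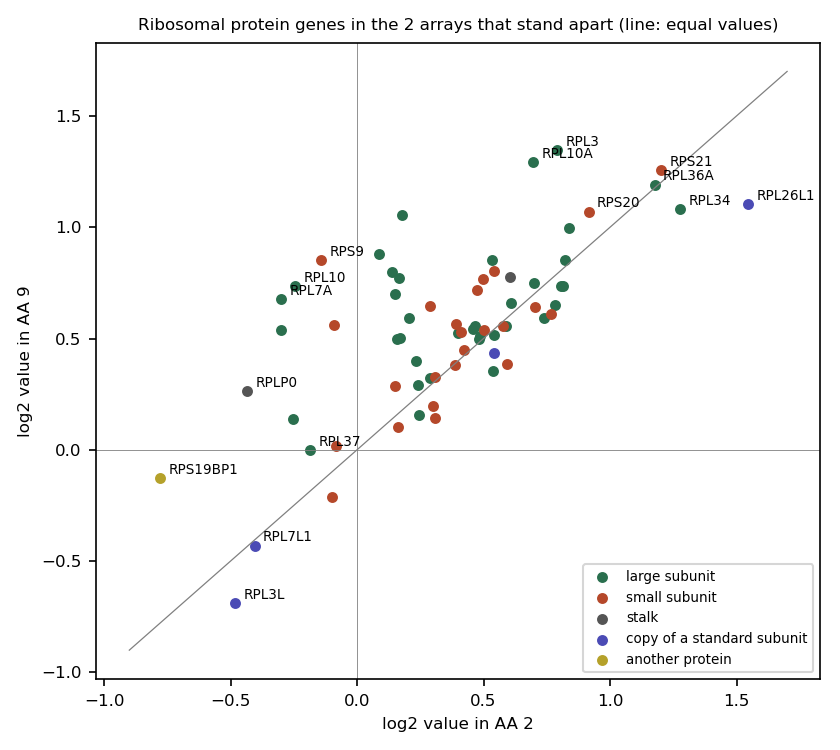
Log2 value of each ribosomal protein gene in AA 2 (x axis) and AA 9 (y axis); colours give the subunit or class and the line marks equal values. Most points lie in the upper right, a set that includes RPL10, RPL7A, RPS9 and RPLP0 lies below 0 in AA 2 only, and RPL3L and RPL7L1 lie low in both.

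Most fibroblast and matrix markers were high in these 2 arrays and milk and epithelium genes low, while other lists were mixed. Both arrays lay above the other 26 in 12 of 18 fibroblast and matrix markers, where 18.4% of all probe sets did. They lay below in 3 (COL6A2, PDGFRA and PDGFRB), where 17.7% of all probe sets did. PDGFRA read -0.44 and -0.95 in AA 2 and AA 9, against -0.20 to 0.60 elsewhere. PDGFRB read -0.43 and -0.50, against -0.25 to 0.32. Both arrays lay above in 3 of 12 myoepithelial, 4 of 15 T and NK cell and 4 of 14 myeloid markers. These shares are closer to that of all probe sets. They lay below in 16 of 17 milk and epithelium genes. The myeloid mean was 0.92 and 1.22, against -0.38 to 1.07 elsewhere, and the myoepithelial mean 0.50 and 0.91, against -0.49 to 0.61, so that AA 2 lay inside the range in both. The B and plasma cell mean was 1.09 and 0.49, against -0.68 to 1.04, so that AA 9 lay inside it. The T and NK cell mean was 0.58 and 0.71, against -0.35 to 0.55, and 2 of 8 B and plasma cell markers lay above. No endothelial or adipocyte marker did, and 2 of 11 and 2 of 7 lay below. Of 13 elongation and associated factors 6 lay above (BTF3, EEF1A1, EEF1B2, FAU, NACA and TPT1) and none below. Of 28 initiation factors 9 lay above and 1 below, of 43 biogenesis genes 13 and 2, and of 67 mitochondrial ribosomal proteins 13 and 6. Since baselines replace levels here, no marker can be read as absent. The part of these cells in the ribosomal values was not tested.

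Over the other 26 arrays, the member mean followed the elongation and associated factors most closely (r = 0.91, rho = 0.89) and then the initiation factors (0.89, rho = 0.86). These came to 0.87 and 0.84 when AA 1 and KA 4 were left out. The elongation list itself includes the ribosomal genes RACK1 (r = 0.92 with the member mean) and FAU (0.75), so its match is partly of ribosomal proteins with each other. The member mean followed ribosome biogenesis genes at 0.54 and mitochondrial ribosomal proteins at 0.51, which came to 0.19 and 0.064 within the lower array numbers and 0.74 and 0.83 within the upper ones (n = 13 each, also below). Among cell type markers r was 0.65 for fibroblasts, 0.62 for myoepithelium, 0.51 for B and plasma cells, 0.50 for myeloid cells, 0.35 for T and NK cells, 0.23 for endothelium, -0.10 for adipocytes and -0.25 for milk and epithelium genes. Several of these also differed between the lower and upper numbers: 0.17 and 0.68 for T and NK cells, 0.32 and 0.65 for myeloid cells, 0.56 and -0.016 for endothelium, and -0.36 and 0.18 for adipocytes. For fibroblasts they were 0.72 and 0.64, and for myoepithelium 0.71 and 0.59. The value for endothelium was 0.042 without AA 1 and KA 4. For mTOR and MYC control it was 0.31 (0.58 and 0.26 in the 2 ranges), for the 3′ minus 5′ control difference -0.15 and for array number 0.11 (0.48 and 0.12). These are descriptions of 26 arrays that share 1 normalization. Each cell type value is of a list mean, and the markers of a list did not all move together. The median pairwise correlation was 0.56 for myeloid, 0.38 for myoepithelial, 0.36 for milk and epithelium, 0.32 for endothelial and 0.30 for fibroblast markers. It was 0.18 for B and plasma cell, 0.075 for adipocyte and 0.068 for T and NK cell markers. Among fibroblast markers PDGFRA correlated with the member mean at -0.76 and COL3A1 at 0.76. Among T cell markers CD4 did so at -0.72 and LCK at 0.63. AA 1, the lowest array for ribosomal proteins, was also lowest for the elongation, initiation, fibroblast, myoepithelial, myeloid and endothelial means, and KA 2, the highest of the 26, was highest for the elongation mean.

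**Figure D5:**
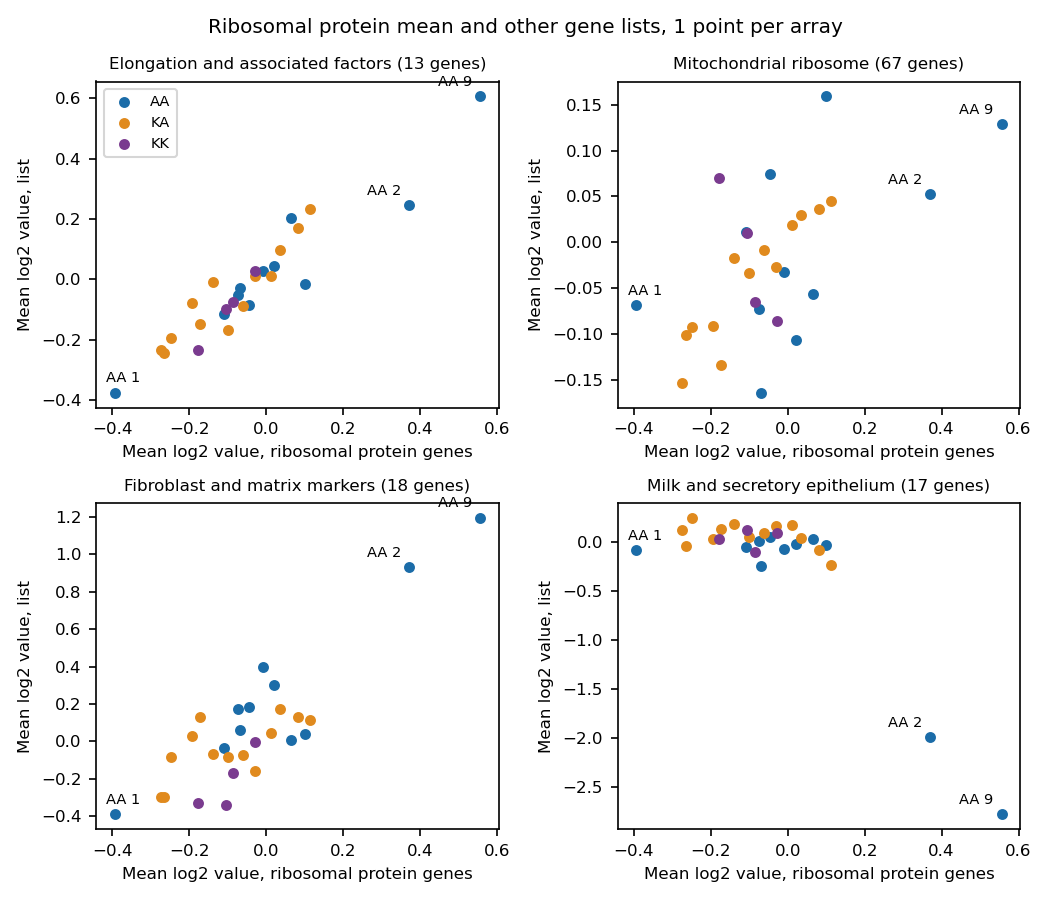
Mean log2 value of 4 other gene lists (y axes) against the mean of the 69 ribosomal protein genes (x axes), 1 point per array, coloured by genotype. Elongation and associated factors rise along a narrow band with AA 1 at the bottom and AA 9 at the top. Mitochondrial ribosomal proteins scatter widely, and the milk and epithelium genes are flat except in AA 2 and AA 9.

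The other translation lists did not pass the test for genotype either: 0 genes were called in each, in all 4 comparisons. The slope per K allele was negative in 9 of 13 elongation and associated factors (median -0.068), 15 of 28 initiation factors (-0.0050), 25 of 43 biogenesis genes (-0.024), 38 of 67 mitochondrial ribosomal proteins (-0.016) and 6 of 19 genes of mTOR and MYC control (0.059). Without AA 2 and AA 9 the medians were -0.033, 0.010, 0.015, -0.0017 and 0.030 in that order, with a change of sign for initiation factors (14 of 28 negative) and biogenesis genes (18 of 43). In the elongation list, EEF1B2, a subunit of the exchange factor of eEF1A, had the smallest p, at -0.21 (SE 0.089). FAU, whose product includes the small subunit protein eS30, came next at -0.094 (SE 0.046). Among initiation factors EIF3B and EIF3I, subunits of eIF3, had slopes of 0.22 and 0.14, and among the control genes RPS6KB1, the S6 kinase, had 0.19, all with an adjusted p of 0.526. Larger values were found in some cell type lists: the median slope was -0.30 for fibroblast markers, -0.19 for myoepithelial markers and 0.28 for milk and epithelium genes. These came to -0.14, -0.12 and 0.039 without AA 2 and AA 9. In the other cell type lists the median slope was smaller in size than that of the ribosomal members. It was -0.017 for T and NK cells, -0.073 for B and plasma cells, -0.022 for myeloid cells, 0.027 for endothelium and 0.075 for adipocytes.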

How the data were processed

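Each of the 28 arrays holds RNA of 1 cow; cows are separate animals, and their number limits the precision. The deposited values are log2 per probe set, made by the authors with Bioconductor 2.7 in R 2.13, per the labels' protocols; RMA and GCRMA are named in the submitters' processing notes, and no source used here says which of them gave the table. No source describes the subtracted baseline. Level classes were read from rounding steps: at least 90% of a probe set's values on the grid of that level, tolerance 6e-08, leaving out values under 0.001 in size. For each gene the brightest probe set by this class stood for it.

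The 112 control probe sets were left out. Genotypes were compared with limma 3.58.1 (R 4.3.3; lmFit and eBayes, all arrays, no covariate), adjusted by Benjamini-Hochberg over 24016 probe sets with a threshold of 0.05, and RPL8 also with permutation tests (scipy 1.17.1). The scripts were tested on simulated data. Members and lists were chosen with earlier results of these data known. Named genes were RPL8, the stalk proteins, RPSA, RPS19BP1 and the relatives with their counterparts; the 4 smallest p per comparison; the 5 largest and smallest SDs; the 4 highest and lowest in AA 2 and AA 9; the 4 with the least agreement between probe sets; the 3 highest and lowest correlations; and up to 4 genes of other lists. Alternatives were quantile normalization, median centring, the number ranges as a block, robust variances, array weights, the 3′ minus 5′ covariate, the mean over probe sets, leaving out dim probe sets, only the groups compared, a threshold of 0.10, leaving out arrays, and, added after seeing the data, fits within number ranges and with 2 choices together. RPLP1 was not analysed here, and no sequences or coordinates are given.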

Additional observations from a re-analysis of the deposited data

Results flagged for a closer look

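RPL9, a large subunit protein, read -0.311 in KK 2, while the other 3 KK arrays read -0.10 to -0.063; its distance from the nearest of them was large against the range of the group. Of 39 groups of named members that were checked this way, 1 stood out so, and chance gives about 1 in 20. KK 2 was the lowest of the KK arrays in the member mean as well (-0.18), and RPL9 is among the genes whose probe sets agreed least.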

How the results depend on the processing

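The count of members passing an adjusted p of 0.05 was 0 in every comparison under every alternative run but one: within array numbers 43 to 56, 23 members passed in KA minus AA, with a median of -0.373. Within numbers 29 to 42 that median was 0.0777, and 0.134 without AA 2. For RPL8, KA minus AA was 0.0671 in the lower range and -0.478 in the upper one. Leaving out 1 array at a time, the median ranged from -0.110 to -0.0502 for the slope, -0.187 to -0.0825 for KK minus AA, -0.184 to -0.0806 for KA minus AA and -0.0266 to 0.0260 for KK minus KA; RPL8 ranged from -0.241 to -0.115 in KK minus AA, -0.223 to -0.0964 in KA minus AA and -0.0704 to 0.0337 in KK minus KA, where 3 of 28 turned positive. The lowest value came without AA 1 and the highest without AA 9 for the 3 medians other than KK minus KA.

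Array weights gave medians of -0.048 for the slope, -0.083 for KK minus AA and -0.073 for KA minus AA, and quantile normalization -0.057, -0.10 and -0.085; without AA 2 and AA 9 they were -0.022, -0.033 and -0.035. In KK minus KA the median was 0.087 with the number ranges as a block and -0.12 within numbers 29 to 42.

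Single members turned in sign as follows. In KA minus AA within numbers 29 to 42, RPL38 was 0.0741, and without AA 2 RPL38 was 0.123, RPS20 0.0971 and RPL26L1 0.0610. In KK minus KA within numbers 29 to 42, RPS19BP1 was -0.0760 and RPS28 -0.167. With the number ranges as a block, RPL10 in KK minus KA was 0.127; with AA 2 and AA 9 left out as well, it was 0.0204 and RPS28 was -0.0067. The causes were not tested. No paired analysis was possible because the labels give no replicate numbers that genotypes share. Signal over background is unknown for values without levels.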

Other observations

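Genes outside the family with the closest pattern to the member mean over the 26 arrays, chosen after seeing the values, included several that act at the ribosome. RACK1, a protein of the small subunit with a symbol outside the RPL and RPS series, reached r = 0.92, BTF3 and NACA, the subunits of the nascent-chain complex, 0.91 and 0.87, EIF3L, EIF3E and EIF3K, subunits of initiation factor eIF3, 0.88, 0.88 and 0.87, and EEF1A1 and EEF1B2, elongation factors, 0.86 and 0.86. The highest values of all came from ITGB5 (0.95), an integrin subunit, and POMC (0.92), the precursor of pituitary hormones, both through bright probe sets. The other probe set of ITGB5 gave 0.67 and that of POMC -0.18, so the POMC pattern was seen with 1 of its 2 probe sets, and its annotation was not checked against sequence.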
